A study of Homo sapiens with 4 samples.

Results

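Adrenergic neuroblastoma identity is described here by 8 genes: the transcription factor genes HAND2, GATA2, GATA3, PHOX2A and ISL1 and the catecholamine enzyme genes TH, DDC and DBH. They were chosen by name and matched by symbol to the Ensembl identifiers of the count tables, and all 8 were found among 60719 genes listed. The RNA came from SK-N-AS, a long-established neuroblastoma line of human origin. Transfection, 24 hours before the experiment began, gave the cells V5-tagged KIF5A, the heavy chain of a kinesin motor, in 1 of 2 forms. The d27 form is a mutant that the series title places among those linked to amyotrophic lateral sclerosis, and WT is the wild-type protein. RNA bound to V5 beads was sequenced from 2 precipitates of d27 and 2 of WT. All 4 libraries come from cells that carry a transfected KIF5A on top of their own gene. Nothing in the labels ties the precipitates to separate cultures, so every p-value reflects differences among 4 libraries and may hold technical spread alone. No input or mock precipitate is used here. A value therefore mixes how much of an mRNA the cells held with how much of it came down with the motor, and the 2 cannot be told apart.

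Sympathetic neurons and chromaffin cells make noradrenaline in steps. TH converts tyrosine to L-DOPA and sets the rate of the pathway, DDC converts L-DOPA to dopamine, and DBH converts dopamine to noradrenaline inside vesicles. Adrenergic neuroblastoma cells keep a set of transcription factors from this lineage that sustain each other's expression, among them the basic helix-loop-helix factor HAND2, the zinc finger factors GATA2 and GATA3, the homeodomain factor PHOX2A, which activates DBH, and the LIM-homeodomain factor ISL1. Other neuroblastoma cells are mesenchymal and lack much of this program. SK-N-AS is commonly placed with the mesenchymal lines.

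RefSeq promoter windows (GRCh38.p14, 250 bases before to 50 after a start) were found for 7 of the 8 genes, in 14 windows. They are shown for HAND2, the gene with the highest level of the set, for DDC, the gene whose difference passed the test, and for DBH, which was near 0 counts. DDC has alternative starting exons, used in neuronal and in non-neuronal cells, and the gene counts add all of them together. HAND2 is at chr4:173530180-173530479 (minus strand), DDC at chr7:50565356-50565655 and chr7:50561022-50561321 (minus strand), and DBH at chr9:133636113-133636412 (plus strand). Capitals mark every match, on either strand, to the GATA factor motif (AGATAA), to the core of the cAMP response element (TGACG) or to the homeodomain core (ATTA).
HAND2: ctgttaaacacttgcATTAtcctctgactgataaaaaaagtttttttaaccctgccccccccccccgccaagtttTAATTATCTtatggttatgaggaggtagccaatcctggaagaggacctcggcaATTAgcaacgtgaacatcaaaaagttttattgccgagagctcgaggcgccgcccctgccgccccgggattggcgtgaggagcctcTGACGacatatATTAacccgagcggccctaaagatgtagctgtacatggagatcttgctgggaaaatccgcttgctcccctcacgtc
DDC, upstream start: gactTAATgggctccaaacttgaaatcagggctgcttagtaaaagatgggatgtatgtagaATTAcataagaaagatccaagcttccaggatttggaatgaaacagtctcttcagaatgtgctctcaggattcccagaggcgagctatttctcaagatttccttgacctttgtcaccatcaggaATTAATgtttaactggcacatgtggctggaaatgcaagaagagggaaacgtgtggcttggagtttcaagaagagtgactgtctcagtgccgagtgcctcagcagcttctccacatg
DDC, downstream start: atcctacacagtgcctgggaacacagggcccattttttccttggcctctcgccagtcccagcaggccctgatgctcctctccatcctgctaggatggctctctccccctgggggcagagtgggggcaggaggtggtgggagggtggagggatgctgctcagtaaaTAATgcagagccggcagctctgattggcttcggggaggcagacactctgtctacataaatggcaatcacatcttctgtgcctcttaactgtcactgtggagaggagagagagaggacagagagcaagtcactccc
DBH: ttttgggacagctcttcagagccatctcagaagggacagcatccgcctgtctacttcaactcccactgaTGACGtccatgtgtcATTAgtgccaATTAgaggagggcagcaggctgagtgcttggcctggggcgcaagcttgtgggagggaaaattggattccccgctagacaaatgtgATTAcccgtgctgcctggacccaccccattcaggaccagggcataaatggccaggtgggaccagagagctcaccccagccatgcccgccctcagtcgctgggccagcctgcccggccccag

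The HAND2 window held 1 match to the GATA motif, which overlapped the homeodomain core beside it, 1 to the cAMP response core and 5 to the homeodomain core. The DBH window held no GATA match, 1 cAMP response core and 3 homeodomain cores. The upstream DDC window held 4 homeodomain cores and the downstream one 1, with neither of the other motifs in either. Of 35116 RefSeq promoter windows of the same length, 10.3% held the GATA motif, 24.6% the cAMP response core and 50.2% the homeodomain core. The E-box that basic helix-loop-helix factors read (CANNTG, 68.7% of windows) was found 1 time for HAND2, 3 times for upstream DDC and 3 times for DBH. These are letter matches, not binding sites.

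Depth and the likeness of the libraries bear on every value. Gene counts totalled 18335151 and 10483082 in d27 and 8142869 and 10811134 in WT, replicates 1 and 2. KIF5A took 10.8% and 11.2% of them in d27 and 9.03% and 14.8% in WT and was not called (log2 -0.20 ± 0.49, edgeR adjusted p = 0.821). The count of KIF5A adds the construct and the cells' own transcripts, so it does not check which construct a library held. HTSeq's summary entries, reads not assigned to a gene, made up 25.9% and 36.8% of a table's summed counts in d27. In WT they made up 47.6% and 47.3%. This share differed with construct, and its bearing on the values was not tested. Across tested genes on the log2 CPM scale, the libraries did not group cleanly by construct. The d27 libraries correlated at r = 0.963 and the WT libraries at r = 0.928, and WT replicate 1 had r = 0.930 with d27 replicate 2.

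The 8 genes spanned levels from abundant to almost absent. In CPM per kb of exon (counts relative to library size after TMM scaling, divided by the summed exon length), the means over 4 libraries were 164 for HAND2, 86.7 for GATA2, 25.9 for GATA3, 7.43 for DDC, 7.19 for PHOX2A, 2.35 for ISL1, 0.204 for DBH and 0.0510 for TH. Some neighbours in this order did not separate. HAND2 ran from 118 to 194 CPM per kb and GATA2 from 57.5 to 128, so their ranges overlapped, although HAND2 was the higher in each library. DDC and PHOX2A overlapped, as did DBH and TH. GATA3, at 19.6 to 34.5 CPM per kb, lay below every GATA2 value and above every DDC value. By this measure 0.472% to 0.857% of the genes with a count lay above HAND2 in a library, 0.707% to 3.05% above GATA2 and 4.89% to 10.9% above GATA3. HAND2, GATA2 and GATA3 together held 97.5% and 96.2% of the 8 genes' counts in d27 replicates 1 and 2, and 95.1% and 95.3% in WT replicates 1 and 2.

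**Figure D1:**
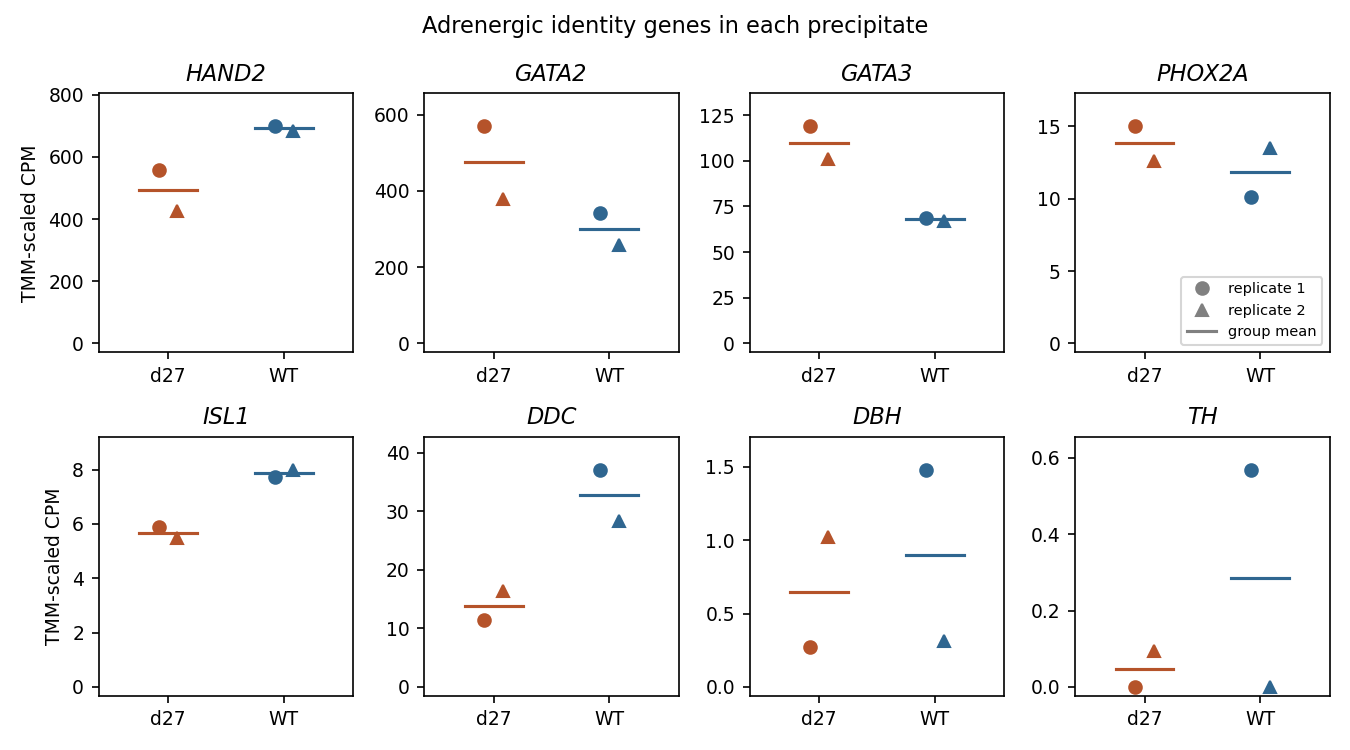
Level of each gene in each library, as TMM-scaled CPM on a linear axis that differs between panels (circles, replicate 1; triangles, replicate 2; lines, means of 2 libraries). DDC lies at 11.4 and 16.4 CPM in d27, below 37.1 and 28.3 CPM in WT, while TH and DBH stay under 1.5 CPM in every library.

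Between constructs, 1 of the 7 tested genes passed the test. DDC fell in d27, none rose, and HAND2, GATA2, GATA3, PHOX2A, ISL1 and DBH did not pass. TH had too few counts to be tested. Among all 14909 genes tested by edgeR's quasi-likelihood test at an adjusted p of 0.05, 11.7% were called, 8.00% higher and 3.70% lower in d27. The groups did not overlap for 5 of the 7 genes (GATA2 and GATA3 higher, HAND2, ISL1 and DDC lower in d27), against 61.2% of all genes tested. Both shares of the 7 genes lie near that background. The median log2 fold change of the 7 was -0.47, against 0.00 over all genes tested, but it was 0.08 without WT replicate 1 and 0.11 without d27 replicate 1.

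DDC (chromosome 7, 50458436 to 50565457, minus strand; GENCODE 29 positions on GRCh38 here and throughout) encodes the decarboxylase that makes dopamine. It had 210 and 176 counts in d27 replicates 1 and 2, against 326 and 272 in WT replicates 1 and 2. As CPM that is 11.4 and 16.4 in d27 and 37.1 and 28.3 in WT. Both d27 libraries were below both WT libraries, although d27 replicate 1 was the deepest of the 4. The mean was 13.9 ± 3.5 CPM in d27 and 32.7 ± 6.2 CPM in WT (SD, n = 2 each). On the log2 scale d27 differed from WT by -1.24 ± 0.32 (SE; edgeR adjusted p = 0.0452), a ratio of 0.424. The call stood close to the threshold. It was lost without d27 replicate 1 (log2 -0.98, edgeR adjusted p = 0.301) and with library totals in place of TMM (-1.21, adjusted p = 0.0802), within a range of 0.00992 to 0.301 over 11 alternatives, and DDC was below 0 on the log2 scale in all 11. The gene's span also holds FIGNL1 on the same strand, with no exon base in common, and DDC-AS1 on the opposite strand, which shares 114 exon bases and had 4 and 1 counts in d27 and 0 in both WT libraries.

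TH and DBH, the enzymes before and after DDC in the pathway, were near 0 counts. TH (chromosome 11, 2163929 to 2171877, minus strand) had 0 and 1 counts in d27 and 5 and 0 in WT, replicates 1 and 2. A library with 0 counts allows up to 3 counts, which is 0.163 TMM-scaled CPM in d27 replicate 1 and 0.312 in WT replicate 2. All but 1 of the TH counts were in WT replicate 1. The d27 to WT ratio over the pooled counts, scaled by library size, was 0.126 with a 95% counting interval of 0.00267 to 1.13, so no difference was detectable at this depth. DBH (chromosome 9, 133635348 to 133659344, plus strand) had 5 and 11 counts in d27 and 13 and 3 in WT. Its d27 values were 0.272 and 1.02 CPM and its WT values 1.48 and 0.312 CPM, so the groups overlapped. DBH passed the filter on low counts through 1 library of each construct, and its log2 fold change of -0.50 ± 1.26 (edgeR adjusted p = 0.824) became 1.02 without WT replicate 1 and 0.21 without d27 replicate 1. The opposite-strand transcript DBH-AS1, with 118 exon bases in common, had more counts than DBH in every library, at 124 and 53 in d27 and 63 and 115 in WT. The strand setting of the counting is not given in the sources used here, so reads in the shared stretch cannot be assigned with certainty.

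Among the transcription factors, GATA2 and GATA3 were on the higher side in d27. GATA3 (chromosome 10, 8045378 to 8075203, plus strand), which sympathoadrenal development in the mouse requires, had 2179 and 1088 counts in d27 and 605 and 648 in WT. It stood at 119 and 101 CPM in d27, above 68.8 and 67.3 CPM in WT. The 2 WT libraries were nearly equal, with means of 110 ± 12 CPM in d27 and 68.1 ± 1.1 CPM in WT (SD, n = 2 each). The log2 fold change of 0.69 ± 0.23 did not pass (edgeR adjusted p = 0.0890). GATA2 (chromosome 3, 128479427 to 128493185, minus strand), a factor also needed for blood stem cells, had the same order of groups. It had 10481 and 4079 counts in d27 and 2993 and 2469 in WT. In CPM, 570 and 379 in d27 were above 341 and 257 in WT, with means of 475 ± 135 and 299 ± 59 (SD, n = 2 each). The d27 libraries differed from each other by more than d27 replicate 2 differed from WT replicate 1. The log2 fold change of GATA2 was 0.67 ± 0.30 (edgeR adjusted p = 0.173), and it passed without WT replicate 1 (0.93, adjusted p = 0.0488).

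HAND2, which drives noradrenergic differentiation of sympathetic neurons, lay on the other side. The gene (chromosome 4, 173524969 to 173530229, minus strand) had 10263 and 4576 counts in d27 and 6147 and 6577 in WT. That is 558 and 425 CPM in d27, below 699 and 684 CPM in WT. Its log2 fold change of -0.49 ± 0.27 did not pass (edgeR adjusted p = 0.251), nor did it under any of 11 alternatives, where it ran from -0.71 to -0.28. HAND2-AS1 starts beside HAND2 on the opposite strand and shares 867 exon bases with it. It had 3129 and 1537 counts in d27 and 1370 and 1335 in WT, with a log2 fold change of 0.09 ± 0.23 (edgeR adjusted p = 0.833). HAND2 has 3601 exon bases in all. As for DBH, the strand setting is not known, so reads in the shared bases cannot be assigned with certainty. The counts of HAND2 and every ratio to them carry this limit.

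Counts of 2 genes in the same library can be set against each other with no scaling between libraries, and gene length cancels when such a ratio is compared between constructs. GATA2 counts were 1.02 and 0.891 times those of HAND2 in d27, and 0.487 and 0.375 times in WT. The ratio was thus higher in both d27 libraries than in both WT libraries, with means of 0.956 ± 0.092 and 0.431 ± 0.079 (SD, n = 2 each), a 2.22-fold difference. GATA3 counts were 0.212 and 0.238 times those of HAND2 in d27 and 0.0984 and 0.0985 times in WT, 2.29-fold apart. PHOX2A counts were 0.0269 and 0.0297 times those of HAND2 in d27 and 0.0145 and 0.0198 times in WT. DDC counts were 0.0205 and 0.0385 times those of HAND2 in d27 and 0.0530 and 0.0414 times in WT, and 0.0964 and 0.162 times those of GATA3 in d27 against 0.539 and 0.420 times in WT. HAND2-AS1 counts were 0.305 and 0.336 times those of HAND2 in d27 and 0.223 and 0.203 times in WT. ISL1 counts were 0.0105 and 0.0129 times those of HAND2 in d27 and 0.0111 and 0.0117 times in WT, with no separation. For each ratio that separated the constructs, a two-sided exact permutation test gave p = 0.333, and 0.389 after adjustment over the 7 ratios. A p of 0.333 is the smallest that 2 against 2 libraries allow, so none can pass and the test cannot decide whether a ratio differs. Every ratio but that of DDC to GATA3 has HAND2 as denominator, so they are not separate observations. By themselves, GATA2 and GATA3 were higher and HAND2 and DDC lower in d27. The ratios of GATA2 to HAND2, GATA3 to HAND2 and DDC to GATA3 therefore had to separate. Those ratios restate differences of single genes, of which DDC alone was called. PHOX2A overlapped by itself and HAND2-AS1 had a log2 fold change of 0.09, so the lower d27 values of HAND2 (-0.49, not called) enter their ratios. Among single genes tested, 61.2% did not overlap between constructs, and the share over gene pairs was not computed.

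**Figure D2:**
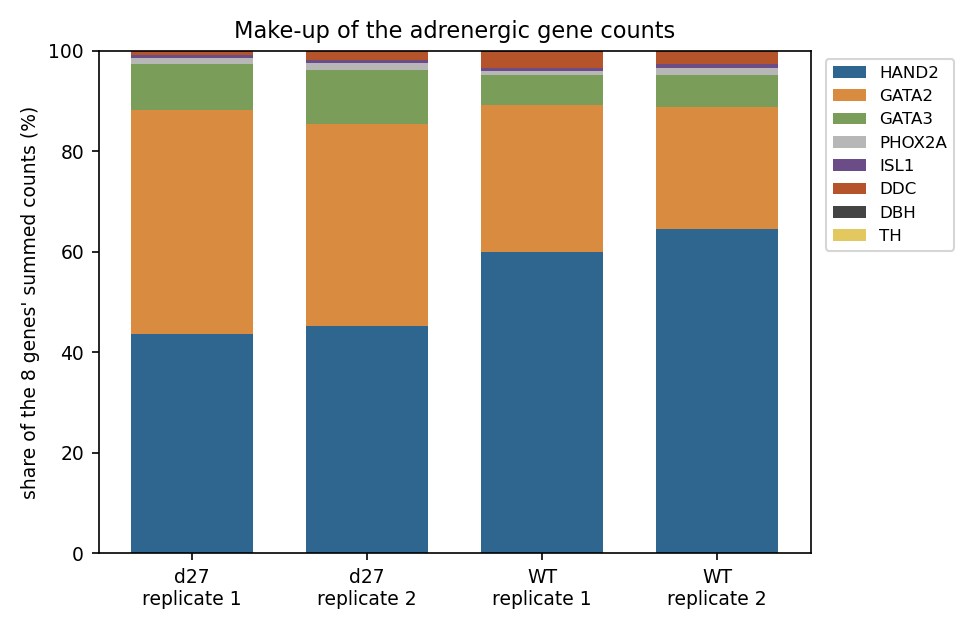
Share of the 8 genes' summed counts taken by each gene, in percent, with 1 bar per library; TH and DBH are too few to see. HAND2 takes 43.6% and 45.2% in d27 and 60.0% and 64.6% in WT, and GATA2 takes 44.6% and 40.3% in d27 and 29.2% and 24.3% in WT.

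PHOX2A and ISL1, both homeodomain factors, were present at low levels. PHOX2A (chromosome 11, 72239077 to 72245664, minus strand) had 276 and 136 counts in d27 and 89 and 130 in WT. Its d27 values of 15 and 12.6 CPM overlapped the WT values of 10.1 and 13.5 CPM, with a log2 fold change of 0.23 ± 0.33 (edgeR adjusted p = 0.685). PHOX2A shares 29 exon bases with INPPL1 on the opposite strand. ISL1 (chromosome 5, 51383391 to 51394738, plus strand) had 108 and 59 counts in d27 and 68 and 77 in WT. At 5.88 and 5.48 CPM the d27 libraries were below the WT libraries, at 7.74 and 8.00 CPM, but the difference did not pass (log2 -0.47 ± 0.41, edgeR adjusted p = 0.472).

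**Figure D3:**
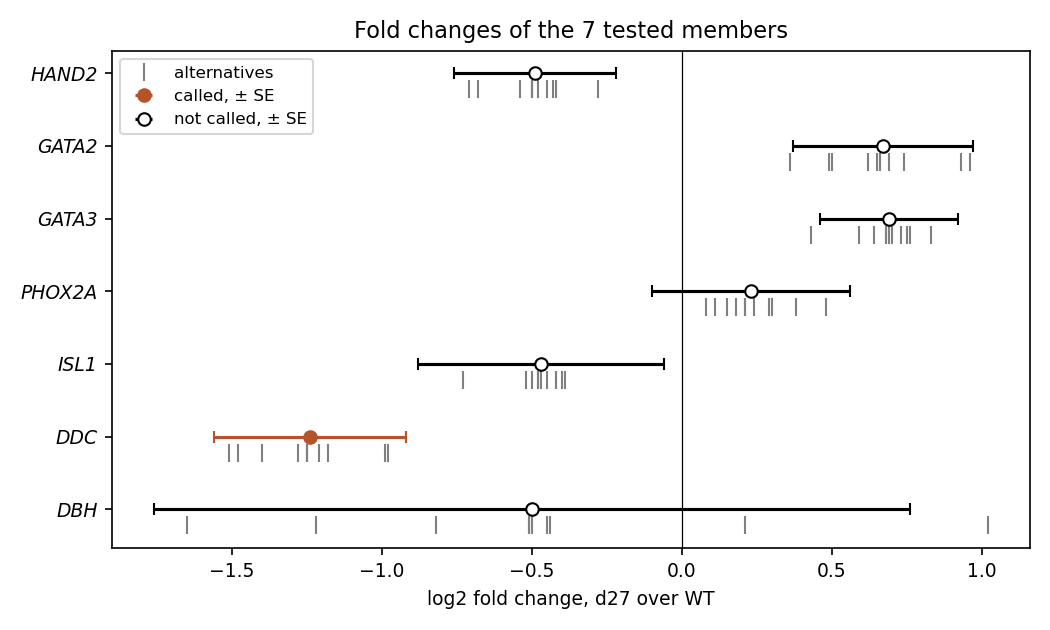
Log2 fold change of d27 over WT with its SE for the 7 tested genes (filled, called; open, not called), with grey ticks for the alternatives. DDC at -1.24 is the called gene. GATA2, GATA3 and PHOX2A stay above 0 and HAND2, ISL1 and DDC below 0 in every alternative, and DBH has ticks on both sides. All alternatives reuse the same libraries, so a kept sign is not separate evidence.

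GC content and profile neighbours played no part in the choice by name, and GC content differed widely within the set. Its percentile among tested genes ran from 39.7 in ISL1 and 55.6 in DDC to 98.4 in PHOX2A. The longest GENCODE 29 transcript was richer in G and C than the median tested gene (48.2%) for 7 of the 8, with 66.5% in PHOX2A, 66.1% in TH, 60.7% in DBH, 59.7% in GATA2, 58.5% in HAND2, 53.7% in GATA3 and 49.9% in DDC, and 45.6% in ISL1. With an offset for GC content and exon length, an alternative chosen after seeing the data, the log2 fold changes became 0.49 for GATA2, 0.43 for GATA3, -0.71 for HAND2 and -1.51 for DDC (edgeR adjusted p = 0.324, 0.231, 0.120 and 0.0129). By Euclidean distance of log2 CPM over the 4 libraries, the 3 genes nearest to HAND2 were CDH2 (0.243), APP (0.408) and AP2M1 (0.409). Those nearest to GATA2 were DDX3X (0.133), MCL1 (0.287) and RCC2 (0.310), and those nearest to DDC were PTPN3 (0.261), ATP5MK (0.286) and H2BC15 (0.305). Such a distance over 4 libraries also holds the level and depth of each library.

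Other genes of the adrenergic program were read from lists. Of 14 other adrenergic transcription factors, 12 were tested and none passed edgeR's test in either direction, with a median log2 fold change of 0.32 against 0.00 over all genes tested. Leaving out 1 library gave a median of 0.01 (d27 replicate 2), 0.10 (d27 replicate 1), 0.01 (WT replicate 2) or 0.34 (WT replicate 1). A filter of at least 50 counts in 2 libraries, which 9 of these genes passed, moved it to -0.18. At an unadjusted p under 0.05, 1 of the 12 passed in edgeR, against 30.7% of all genes tested. DESeq2 called 1 of the 12, lower in d27, and 19.5% of all genes, 11.3% higher and 8.26% lower. The most abundant of this list were TBX2 (162 and 162 CPM in d27, 245 and 277 in WT), SOX11 (157 and 156 CPM in d27, 113 and 127 in WT) and KLF13 (109 and 102 CPM in d27, 87.5 and 76.7 in WT). None of these 3 passed, with edgeR adjusted p-values of 0.0878, 0.288 and 0.324.

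For the steps around the 3 enzymes, 12 genes of cofactor supply, vesicle storage, uptake and breakdown of catecholamines were listed. Of these, 10 were tested and none passed in either direction, with a median log2 fold change of 0.37 (0.18 to 0.57 over the alternatives). None of the 10 had an unadjusted edgeR p under 0.05, against the 30.7% of all genes tested, and DESeq2 called none. The most abundant were CYB561, which passes electrons into vesicles for DBH (133 and 150 CPM in d27, 75.1 and 112 in WT), QDPR, which regenerates the cofactor of TH (37.5 and 42.6 CPM in d27, 39.4 and 25.3 in WT), and MAOA, which breaks down monoamines (20.7 and 21.9 CPM in d27, 21.3 and 13.9 in WT). Of 14 sympathoadrenal differentiation markers, 12 were tested and none passed edgeR's test. An unadjusted p under 0.05 was reached by 4 of the 12, a share near the 30.7% of all genes, and DESeq2 called 2, both lower in d27. Their median log2 fold change was -0.38, which became -0.88 when d27 replicate 2 was left out, -0.72 when WT replicate 1 was and -0.16 when WT replicate 2 was. With the replicate number as a block, edgeR called 3 of the 12 lower in d27, against 1438 of all 14909 genes tested. SCG2, a secretory granule protein, had 849 and 648 CPM in d27 and 655 and 557 in WT. NPY, a neuropeptide released with noradrenaline, had 64.5 and 96.3 CPM in d27 and 151 and 156 in WT (log2 -0.93 ± 0.27, edgeR adjusted p = 0.0590). RET, a receptor of glial neurotrophic factors, had 63.3 and 150 CPM in d27 and 174 and 415 in WT, more than 2-fold apart within each construct.

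The label of adrenergic identity held for these libraries in part. HAND2, GATA2 and GATA3 were abundant, PHOX2A and ISL1 low, and the noradrenergic enzymes TH and DBH near 0. Mesenchymal markers were present beside them: all 18 listed passed the filter, with a median level of 16.9 CPM per kb, against 7.31 over the 8 adrenergic genes and 3.34 over the 14 other adrenergic factors. Their summed level was 6988 and 6466 CPM in d27 and 5567 and 5542 in WT. Without FOSL1, the gene that was called, the other 17 summed to 5071 and 4717 CPM in d27, below 5401 and 5399 in WT. Such sums rest on abundant genes, which went both ways. FN1 had 164 and 338 CPM in d27 and 489 and 1059 in WT (edgeR adjusted p = 0.059). CD44 had 1152 and 781 CPM in d27 and 625 and 366 in WT (edgeR adjusted p = 0.11). Neither gene passed, and both are examples picked from the list for their opposite directions. Among the 18, 10 had a log2 fold change above 0 and 8 below 0. The 8 adrenergic genes summed to 1280 and 941 CPM in d27 and 1166 and 1058 in WT. Of the 18, 1 rose and 17 did not pass in edgeR, where 8.00% of all genes tested were called higher and 3.70% lower. An unadjusted edgeR p under 0.05 was reached by 8, against 30.7% of all genes. DESeq2 called 4 higher and 2 lower in d27, against 11.3% and 8.26% of all genes. With the replicate block edgeR called 5 of the 18 higher and 2 lower, against 2137 and 1438 of all 14909 genes tested. The median log2 fold change of the 18 was 0.01. It ran from -0.09 without d27 replicate 1 or WT replicate 2 to 0.25 without d27 replicate 2. The gene that rose was FOSL1, an AP-1 factor of mesenchymal cells, at 1917 and 1749 CPM in d27 and 166 and 143 in WT (log2 3.57 ± 0.30, edgeR adjusted p = 0.00384). VIM, the mesenchymal intermediate filament vimentin, had 1186 and 1340 CPM in d27 and 1809 and 1861 in WT, and SPARC, a matrix protein, 891 and 1033 CPM in d27 and 1088 and 834 in WT; neither passed. Whether the adrenergic and mesenchymal lists moved differently was not tested.

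**Figure D4:**
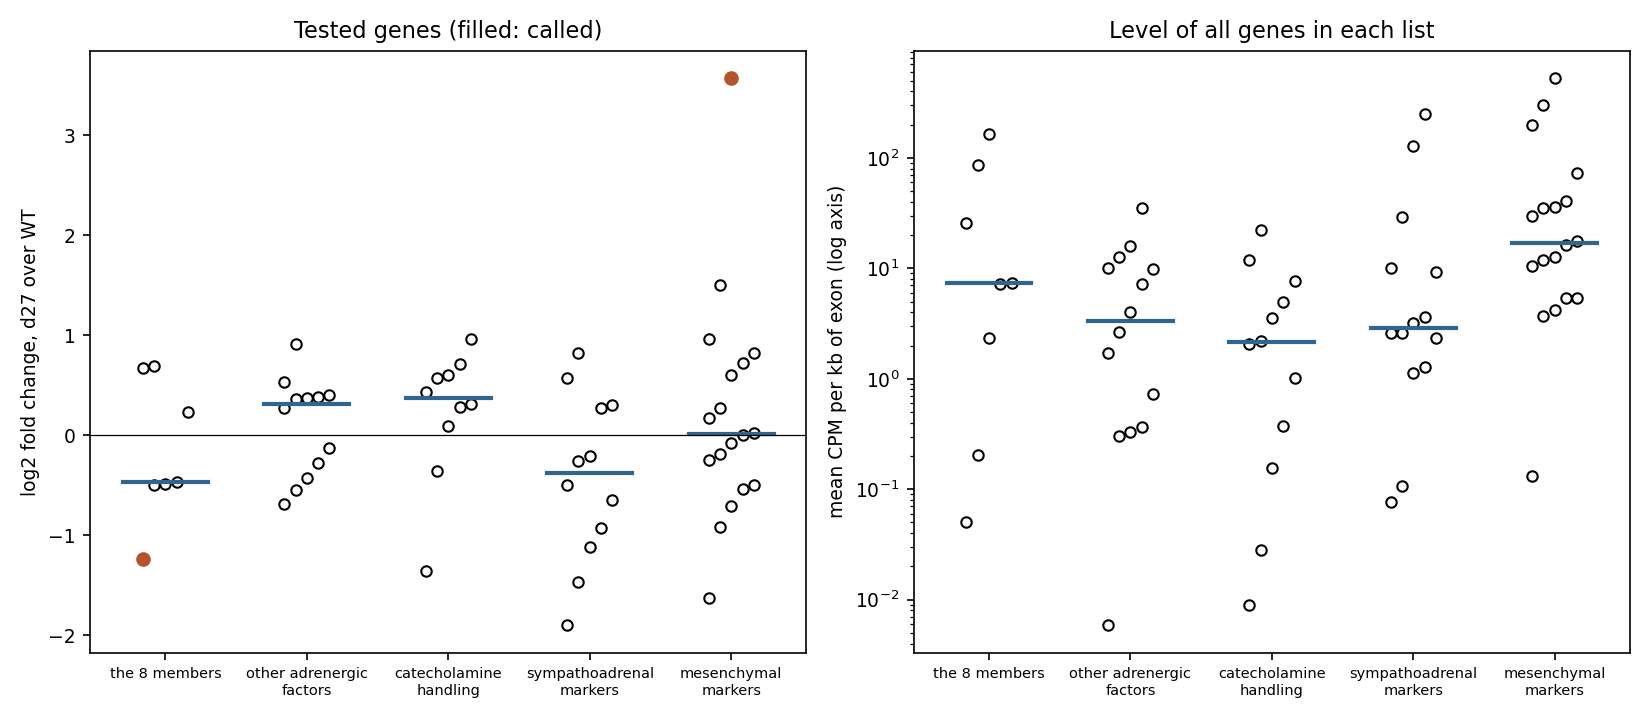
Left, log2 fold change of d27 over WT for the tested genes of each list (filled, called; lines, medians). Right, mean level of all genes of each list over the 4 libraries in CPM per kb of exon, on a log axis. FOSL1 at 3.57 and DDC at -1.24 are the called genes, and the medians lie between -0.47 and 0.37.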

How the data were processed

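RNA that co-precipitated with V5-tagged KIF5A was sequenced in 4 libraries, 2 of d27 and 2 of WT. Per the labels' protocols, RNA was depleted of ribosomal RNA and libraries were made with a stranded kit. Each deposited table holds raw counts of reads per gene, made by the authors with HTSeq on GRCh38 per the submitters' processing notes, which also name DESeq2. The aligner, annotation, strand setting and versions were not given in the sources used here. HTSeq's summary entries, 25.9% and 36.8% of a table's summed counts in d27 and 47.6% and 47.3% in WT, were left out.

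Identifiers were matched to symbols without their version (60419 of 60719 genes), and positions and exon lengths came from GENCODE 29. The main test was edgeR 4.0.16 in R 4.3.3: TMM, filterByExpr (minimum count 10, minimum total 15), glmQLFit (robust) and glmQLFTest on construct, with Benjamini-Hochberg adjustment over all 14909 genes tested and a threshold of 0.05. Each SE was obtained from the fold change on the log2 scale and the F statistic, as their quotient after taking the root of F. The code was tested on simulated data. The fit was repeated with DESeq2 1.42.0, with DESeq2 size factors, with library totals, with no filter, with at least 50 counts in 2 libraries, each library left out, the replicate number as a block, and an offset for GC content and exon length. Counting intervals are exact 95% binomial ones, and they and the floor of 3 counts cover counting error only. The members and lists were chosen with earlier results of these data known. Of the lists as first drawn up, 2 genes are not reported here and enter no list count or median. Named genes are all 8 members, KIF5A, the called genes of each other list (up to 3 per direction), its 3 most abundant genes, and the nearest genes by profile, given for 3 members. Opposite-strand and overlapping genes were added after their values were seen, as were FN1 and CD44, which lie outside this rule.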

Additional observations from a re-analysis of the deposited data

How the results depend on the processing

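Of 75 values for the 7 tested members over 11 alternatives, 69 kept their direction and their side of the threshold. DDC did not pass with library totals (log2 -1.21) and ranged from -1.48 to -0.98 with 1 library left out. GATA2 ranged from 0.36 to 0.96 and DBH from -1.65 to 1.02 in the same way, DBH with the sign turned without WT replicate 1 (1.02) and without d27 replicate 1 (0.21). DESeq2 gave DBH no adjusted p. The stricter filter did not test DBH. The number of members called was 0 with library totals and 0 to 2 with 1 library left out. The number of genes called was 2909 with DESeq2, 2862 with no filter and 768 to 4851 with 1 library left out, against 1743 in all. With no filter the median log2 fold change of all genes tested was 0.31. With the GC and length offset 56.6% of called genes were higher in d27, against 68.4% without it. The causes of these shifts were not tested.

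Nothing in the labels says that equal replicate numbers mark a shared culture or day, and the deviations of equally numbered libraries had r = 0.0962 across genes. With the replicate block 3575 genes and 2 members were called, and GATA3 passed (log2 0.69, edgeR adjusted p = 0.0302). Depth limits TH, DBH and, less so, ISL1.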
